A study of Mus musculus with 4 samples.

Results

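The glutathione and thioredoxin system was represented here by 10 genes, Gclc, Gclm, Slc7a11, Gsr, Txnrd1, Txn1, Srxn1, Prdx1, Prdx5 and Prdx6, and by every accessible region that carried one of these names as its nearest gene. This gave 43 of 80929 regions, near 9 of the 10 genes. Txn1 named no region. The assay was ATAC-seq, which reads open chromatin from the places where a transposase can cut and tag the DNA. The cells were RAW264.7, a macrophage-like line established from mice with a leukaemia induced by Abelson virus. The 4 libraries came from wells of 1000000 cells collected after 48 h. The titles put 2 of them in a group called Gel and 2 in a group called CuNZ@Gel, which the series title describes as a nanozyme hydrogel that can be sprayed. The treatment note is identical for all samples and names CuNZ@Gel alone, so the Gel group rests on its title, and an untreated group was not analysed here. All libraries came from 1 cell line, and nothing in the labels tells separate cultures from repeat libraries of 1 culture, so the p-values reflect how far these libraries differ from one another, a spread that may be purely technical.

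Glutathione is the main small thiol of the cell. Its first, rate-limiting step of synthesis is carried out by glutamate-cysteine ligase, which joins glutamate to cysteine, and the cysteine is largely drawn from cystine imported in exchange for glutamate. Oxidised glutathione is recycled by glutathione reductase with NADPH. In parallel, thioredoxin reductase keeps thioredoxin reduced, thioredoxin keeps most peroxiredoxins reduced, and sulfiredoxin rescues peroxiredoxins that peroxide has over-oxidised. Many genes of both systems are known targets of the transcription factor NRF2, which binds the antioxidant response element, and in macrophages they are known to be induced during oxidative and inflammatory stress.

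The promoters of the genes were searched for the letters of that element, TGACNNNGC, on both strands. The RefSeq promoter table used here (GRCm38.p6, 250 bases before to 50 bases after each start) held 9 promoters of 7 of the genes, with 3 for Txnrd1 and 1 each for Gclm, Prdx1, Prdx5, Slc7a11, Srxn1 and Txn1. A match to these letters was found in 4 of these 9, and in 4071 of all 32851 promoters of the table (12.4%). These 4 are printed because they hold a match. Each is given on the strand of the gene, 5′ to 3′, with the match in capitals, where it appears as its reverse complement. They lie at chr3:122245307-122245606 (Gclm), chr4:116685349-116685648 (Prdx1), chr2:152105274-152105573 (Srxn1) and chr10:82858956-82859255 (Txnrd1), all on the plus strand.
Gclm: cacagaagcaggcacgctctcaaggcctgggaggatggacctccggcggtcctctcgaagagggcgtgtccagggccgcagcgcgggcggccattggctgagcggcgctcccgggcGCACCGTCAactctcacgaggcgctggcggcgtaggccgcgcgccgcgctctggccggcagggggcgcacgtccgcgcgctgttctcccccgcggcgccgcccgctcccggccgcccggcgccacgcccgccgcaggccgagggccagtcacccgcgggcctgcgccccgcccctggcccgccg
Prdx1: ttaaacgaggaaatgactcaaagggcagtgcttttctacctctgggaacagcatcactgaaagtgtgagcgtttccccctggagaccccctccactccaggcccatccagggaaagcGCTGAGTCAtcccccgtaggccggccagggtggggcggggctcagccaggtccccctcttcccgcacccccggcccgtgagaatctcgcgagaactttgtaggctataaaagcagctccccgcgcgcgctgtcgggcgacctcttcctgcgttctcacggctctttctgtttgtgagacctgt
Srxn1: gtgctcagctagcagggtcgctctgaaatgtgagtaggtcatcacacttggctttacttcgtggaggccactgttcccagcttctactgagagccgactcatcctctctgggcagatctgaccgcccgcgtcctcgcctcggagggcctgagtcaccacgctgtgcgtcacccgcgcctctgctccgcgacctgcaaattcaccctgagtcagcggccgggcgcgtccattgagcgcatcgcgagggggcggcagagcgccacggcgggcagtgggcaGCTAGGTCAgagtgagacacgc
Txnrd1: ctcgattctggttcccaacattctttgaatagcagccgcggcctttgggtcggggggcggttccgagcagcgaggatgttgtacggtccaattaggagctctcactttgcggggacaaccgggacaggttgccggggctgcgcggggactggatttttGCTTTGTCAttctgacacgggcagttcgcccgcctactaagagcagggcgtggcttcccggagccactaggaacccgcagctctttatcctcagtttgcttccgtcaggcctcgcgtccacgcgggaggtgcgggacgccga
The match began 134 bases before the start of Gclm, 133 before that of Prdx1, 92 before that of Txnrd1 and 28 after that of Srxn1. The AP-1 letters TGANTCA were found in 2565 promoters (7.81%). Prdx1 and Srxn1 were the 2 promoters among the 9 that held them, each with 2 sites, of which 1 in Prdx1 overlapped the first match. The matches describe letters in these windows. The regions below are on another build, GRCm39, so which of them covers a promoter was not determined.

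Reads in regions numbered 18843583 and 17914750 in the Gel libraries and 7440951 and 10236702 in the CuNZ@Gel libraries. Values are given as RPM, the reads in a region per 1000000 reads after the scaling factor of each library that the deposited values contain. Changes are differences of log2(RPM + 1), CuNZ@Gel minus Gel, with their standard error, which understate the change of weak regions. A region or gene was called when limma's adjusted p over all regions or genes was below 0.05. Reads in regions per background pileup, the genome-wide background of the peak caller, in units of 1000000 reads, were 18.8 and 18.6 in Gel and 6.37 and 8.53 in CuNZ@Gel. This difference ran with every comparison between the groups, and its part in them was not tested. In these bulk libraries, a change in fewer cells and a smaller change in all cells cannot be told apart. All 10 macrophage markers had a region, with a summed level of 1262 and 1299 RPM in Gel and 1015 and 1026 in CuNZ@Gel. The sums were 55.6 to 84.0 RPM for 4 T cell markers, 5.95 to 7.03 for 2 of 3 B cell markers, 36.1 to 38.7 for 2 of 3 fibroblast markers and 12.1 to 17.5 for 3 epithelial markers, with no region for Cd79a or Col1a2. The part of other cell types in the results was not tested.

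Chromatin near these genes did not change in 1 direction on the deposited scaling. On it, regions near Gclc, Gclm and Prdx5 and the strongest region near Prdx6 were lower in CuNZ@Gel. With the trend of change with level removed, however, those of Gclm, Prdx5 and the strongest of Gclc turned in sign. Regions near Txnrd1, Prdx1 and Slc7a11 and 2 weaker ones near Prdx6 were higher, though 2 near Slc7a11 and 1 near Prdx6 turned when scaled to the background pileup, where those of Prdx1 and Txnrd1 were no longer called. Of the 41 regions that passed the filter on low reads, 9 were called higher and 7 lower. Among the 9 were 3 (Slc7a11 region 8, Prdx6 region 8 and Txnrd1 region 1) that passed the filter through the CuNZ@Gel libraries alone, where they are high, so that they had to differ. Their values are given as a description, without p, and 6 of the higher calls stand apart from them. Among these 6, the Prdx1 region was listed through peaks of CuNZ@Gel alone. Among the lower calls, Gclc region 9 was listed through peaks of Gel alone. Each is high in that group, so their values too are given without p. Over all 77014 regions tested, 21.2% were called higher and 21.9% lower, so the counts of members stood close to or below the background. A total of 19 of the 41 had an unadjusted p below 0.05, and the share over all regions at that threshold was not determined. The members' changes ranged from -0.87 to 2.35 with a median of 0.10, beside a median of -0.004 over all regions. The groups did not overlap in 28 of the 41, 16 with both CuNZ@Gel libraries above and 12 with both below, and the same was true of 68.3% of all tested regions. The split depended on scaling. It was 15 higher and 5 lower with library totals, beside 23142 higher and 9155 lower of all 77014 regions. When scaled to the background pileup it was 2 higher and 20 lower, beside 3738 higher and 46694 lower of all regions. The 2 were Slc7a11 region 8 and Prdx6 region 8, which had to differ, so every other call on that scale was lower. Removing the trend gave 10 higher and 3 lower, against 18.8% higher and 13.8% lower over all regions. Of the 16 calls, 10 held in the same direction with the trend removed. Slc7a11 region 8, which had to differ, is among these 10, as are the Prdx1 region and Gclc region 9. The share of calls over all regions that held in this way was not determined.

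**Figure D1:**
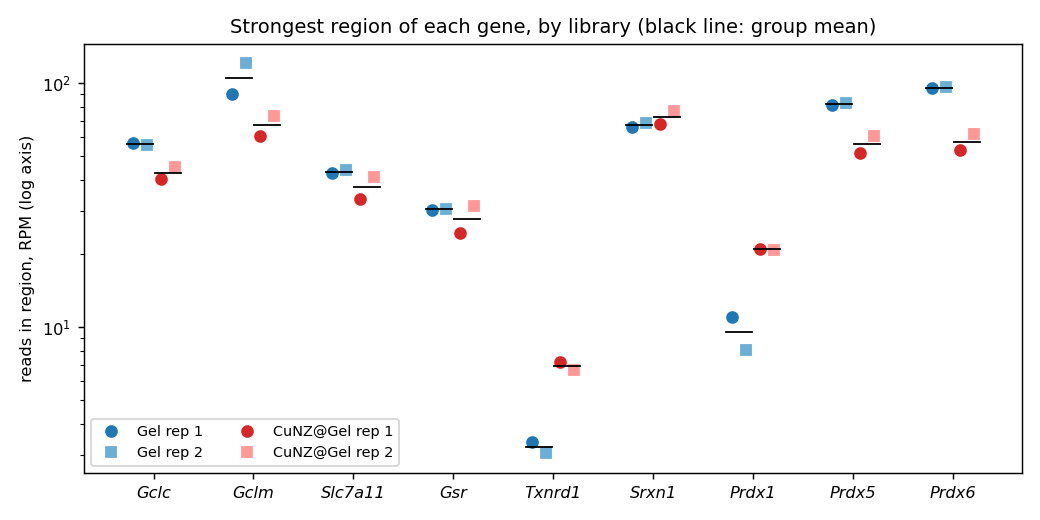
Reads in the strongest region of each gene, in RPM on a log axis, for the 4 libraries (circles replicate 1, squares replicate 2), with group means as black lines. On this scaling both CuNZ@Gel libraries lie below both Gel libraries for Gclc, Gclm, Slc7a11, Prdx5 and Prdx6, above them for Txnrd1 and Prdx1, and the groups overlap for Gsr and Srxn1.

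**Figure D2:**
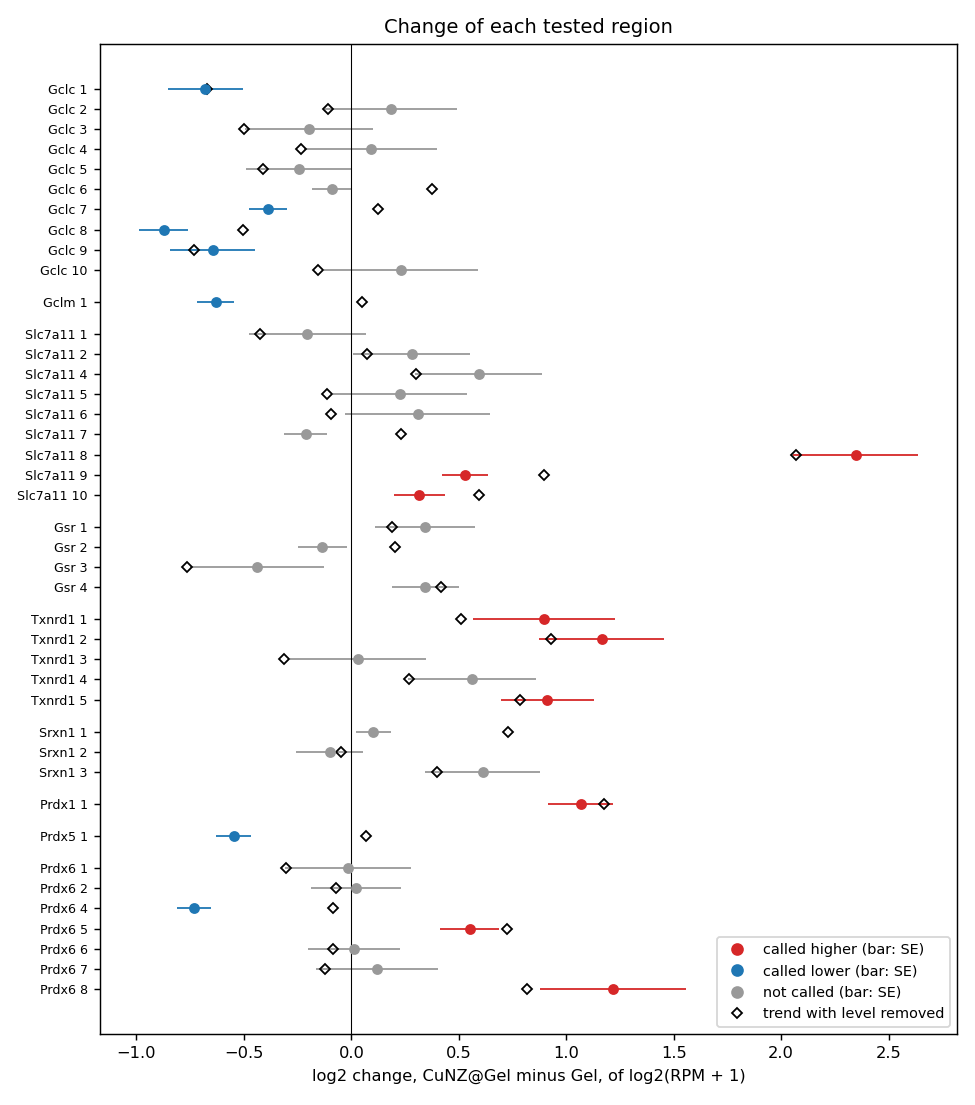
Change of each of the 41 tested regions, as the difference of log2(RPM + 1) between groups, with bars of 1 standard error. Filled points are on the deposited scaling, 9 of them called higher and 7 lower, and diamonds give the change with the trend of change with level removed, where Gclm 1 and Prdx5 1 move to 0.05 and 0.07.

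Gclc encodes the catalytic subunit of glutamate-cysteine ligase. It had 10 regions on chromosome 9, numbered along the chromosome as for every gene here, and 4 of them were called lower and none higher. The strongest, region 7 (chr9:77657607-77658735), held 56.9 and 55.8 RPM in the Gel libraries and 40.6 and 45.1 in the CuNZ@Gel libraries. Both CuNZ@Gel libraries were lower, at 0.761 times the Gel mean (change -0.39 ± 0.09, adjusted p = 3.73e-04). With the trend removed region 7 stood at 0.12 and was not called, and with library totals, at -0.11, it was also not called.

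The largest change near Gclc was in region 8 (chr9:77661732-77662407), 3.90 kb from the strongest. It held 38.5 and 48.4 RPM in Gel and 20.9 and 25.6 RPM in CuNZ@Gel. The groups were apart by more than the spread within either, with the CuNZ@Gel mean at 0.535 times the Gel mean (change -0.87 ± 0.11, adjusted p = 1.04e-08). It was still called lower, at -0.51, with the trend removed. Next to it, region 9 held 7.75 and 8.17 RPM in Gel and 4.49 and 4.98 in CuNZ@Gel (-0.65 ± 0.20). Region 9 was listed through peaks of the Gel libraries alone, where it is high, so its values are a description. Its call was lost without either Gel library, at -0.68 without replicate 1 and -0.61 without replicate 2, and with library totals (-0.40).

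At the other end, at -41.8 kb from the strongest region, Gclc region 1 held 13.4 and 12.2 RPM in Gel and 6.18 and 9.33 in CuNZ@Gel (-0.68 ± 0.17, adjusted p = 1.18e-03). It was called lower with the trend removed too, at -0.67, but stood at -0.42 without CuNZ@Gel replicate 1 and with library totals (adjusted p = 0.0470 and 0.0471). Region 6, the second strongest, was at 46.3 and 42.6 RPM in Gel and 42.8 and 40.5 in CuNZ@Gel, so the groups overlapped and no change was called (-0.09 ± 0.09). It was called higher, at 0.38, once the trend was removed. The calls near Gclc therefore went in both directions on that scale. Region 10 was at 0.23 on the deposited scale and was called higher, at 0.92, without CuNZ@Gel replicate 2, which held 3 reads there against 19 in replicate 1.

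Gclm encodes the modifier subunit of the same ligase, which raises the activity of the catalytic one. Its single region (chr3:122038745-122040022) was among the strongest of all members, at 90.1 and 120.3 RPM in Gel and 60.7 and 73.5 in CuNZ@Gel. The Gel libraries differed from each other by more RPM than in the strongest region of any other member, yet both stood above both CuNZ@Gel libraries. The change was -0.63 ± 0.09 (adjusted p = 4.52e-08), a ratio of 0.638. Its sign turned with the trend removed, at 0.05 (adjusted p = 0.661).

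Slc7a11 encodes the light chain of the cystine and glutamate exchanger that supplies cysteine. Of its 10 regions, 3 were called higher and none lower. The strongest, region 7 (chr3:50360436-50361713), held 42.6 and 43.8 RPM in Gel and 33.5 and 41.2 in CuNZ@Gel. Both CuNZ@Gel libraries were below, but the difference missed the threshold (-0.21 ± 0.10, adjusted p = 0.0844). It was called lower, at -0.36, without CuNZ@Gel replicate 2, and stood at 0.23 with the trend removed.

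The largest rise of any member was 30.0 kb beyond that, in Slc7a11 region 8 (chr3:50390901-50391139). It held 4 and 3 reads in the Gel libraries and 52 and 47 in the CuNZ@Gel libraries, or 0.234 and 0.186 RPM against 6.31 and 4.18. The change was 2.35 ± 0.29, and 2.07 with the trend removed. With both Gel libraries under the minimum of the filter, the region entered the test through CuNZ@Gel alone. A peak was listed there in CuNZ@Gel replicate 1 only, at an authors' fold enrichment of 3.42. The region is weak even in CuNZ@Gel beside its neighbours, regions 9 and 10.

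Slc7a11 region 9 (chr3:50392438-50393724) held 25.1 and 26.8 RPM in Gel and 37.5 and 38.4 in CuNZ@Gel. Both groups were tight and apart (0.53 ± 0.11, adjusted p = 4.67e-05). Region 10 held 22.4 and 20.2 RPM in Gel and 27.2 and 26.3 in CuNZ@Gel, a smaller difference (0.32 ± 0.12, adjusted p = 0.0276) whose call was lost without Gel replicate 1 (0.38), Gel replicate 2 (0.25) or CuNZ@Gel replicate 1 (0.29). Both were called higher with the trend removed, at 0.90 and 0.59. When scaled to the background pileup they turned to -0.50 and -0.70, and region 8 stayed at 1.81. The other regions near Slc7a11 were weak, none above 3.40 RPM in any library.

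**Figure D3:**
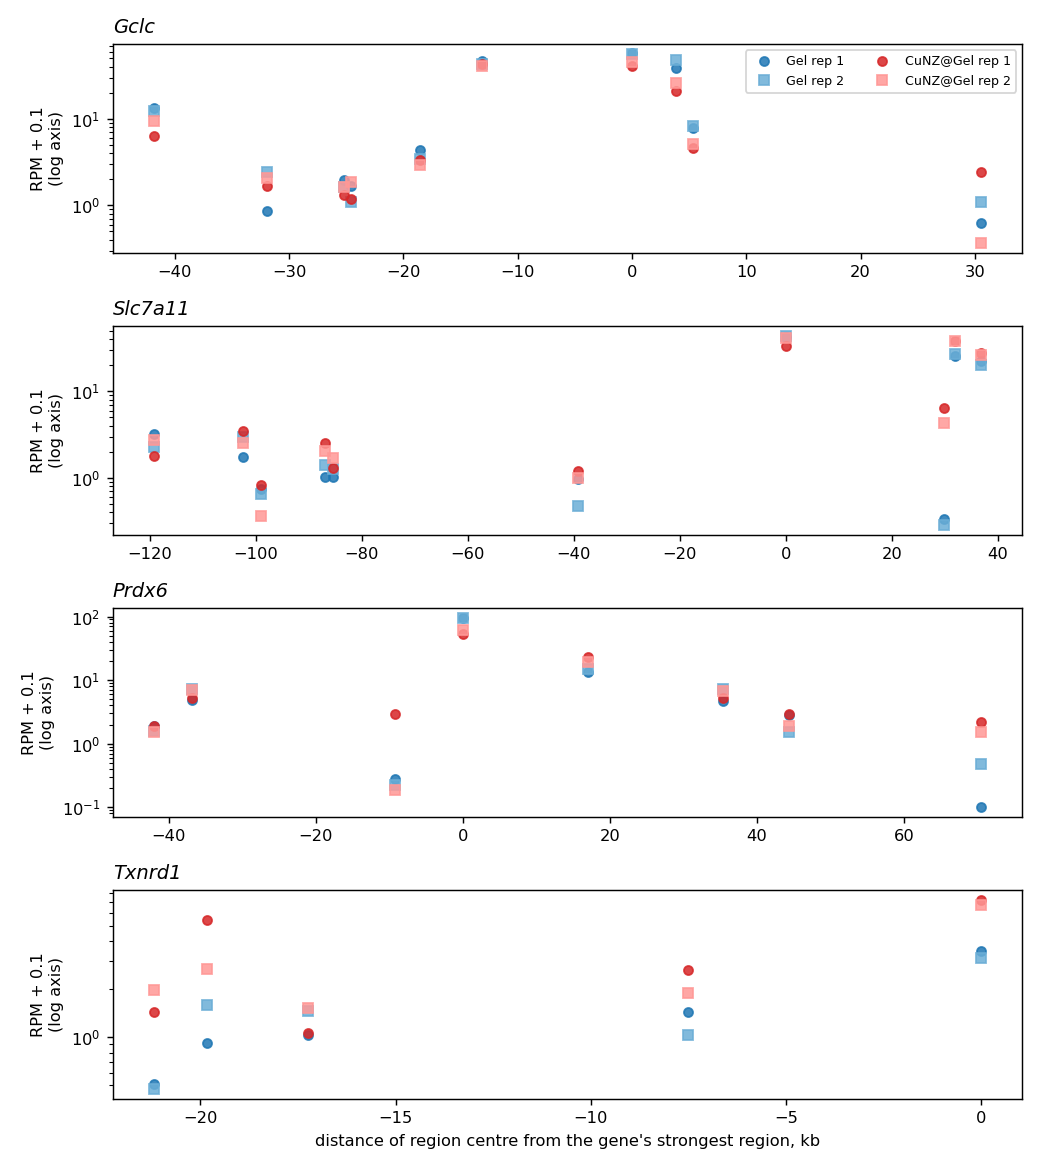
Reads in every region near Gclc, Slc7a11, Prdx6 and Txnrd1 in the 4 libraries, as RPM + 0.1 on a log axis, against the distance of the region's centre from the strongest region of the gene in kb. On the deposited scaling, the CuNZ@Gel libraries lie lower at and just beyond the strongest Gclc region, and higher in the 3 Slc7a11 regions between 30.0 and 36.9 kb.

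Gsr encodes glutathione reductase. None of the 4 regions under its name was called on the deposited scaling. The strongest, region 2 (chr8:34142969-34144022), held 30.3 and 30.6 RPM in Gel and 24.4 and 31.3 in CuNZ@Gel. The CuNZ@Gel libraries lay on both sides of the Gel ones (-0.14 ± 0.12, adjusted p = 0.370). Region 2 was called lower, at -0.31, without CuNZ@Gel replicate 2, and stood at 0.04 without replicate 1 and at 0.20 with the trend removed. Region 3, with the largest change near the gene, held 1.22 and 2.29 RPM in Gel and 1.21 and 0.800 in CuNZ@Gel (-0.44 ± 0.31, adjusted p = 0.273). In region 4, the Gel libraries were at 11.0 RPM each and the CuNZ@Gel libraries at 12.4 and 16.3 (0.35 ± 0.16, adjusted p = 0.0697), and it was called higher without CuNZ@Gel replicate 1 and, at 0.42, with the trend removed. Regions beside Gsr under other names were called. That of Gm24727, which overlaps Gsr in RefSeq, held 2.2 and 2.4 RPM in Gel and 5.5 and 4.3 in CuNZ@Gel. It was higher, at 0.83 and at 0.66 with the trend removed. The strongest regions of the next genes were higher for Gm40485 (1.33) and lower for Gm33433 (-0.69). Neither rise was called with the background pileup (0.02 and 0.64). The Gm40485 region was listed through a peak of CuNZ@Gel replicate 2 alone.

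Txnrd1 encodes the cytosolic thioredoxin reductase, a selenoprotein. It had 5 regions, all weak, and 3 were called higher, 1 of which entered the test through CuNZ@Gel alone, and none lower. The strongest, region 5 (chr10:82681559-82682122), held 3.38 and 3.03 RPM in Gel and 7.16 and 6.66 in CuNZ@Gel. The CuNZ@Gel mean was 2.15 times the Gel mean and the groups were well apart (0.91 ± 0.22, adjusted p = 4.90e-04). The change was 0.79 with the trend removed and was still called. Scaled to the background pileup it was 0.04 and was not called.

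Region 2 of Txnrd1 (chr10:82661791-82662227) changed most, from 0.816 and 1.48 RPM in Gel to 5.33 and 2.58 in CuNZ@Gel. The CuNZ@Gel libraries differed from each other, and without replicate 1 of that group the change fell from 1.16 ± 0.29 (adjusted p = 8.12e-04) to 0.75, which was not called. Scaled to the background pileup it was at 0.46 and also not called. Region 1 held 7 and 6 reads in Gel and 11 and 21 in CuNZ@Gel (0.90 ± 0.33), and passed the filter through CuNZ@Gel alone. Its call was lost without CuNZ@Gel replicate 2 (0.75), Gel replicate 1 (0.92) or Gel replicate 2 (0.88), with the trend removed (0.51) and with the background pileup (0.44).

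Regions carry the name of the nearest gene alone. RefSeq places Gm38560, a non-coding RNA gene, and Eid3 over Txnrd1, and the strongest region under each name is given here, chosen after its values were seen. The Gm38560 region lies at chr10:82694248-82696765. It held 128.8 and 132.5 RPM in Gel and 88.3 and 87.1 in CuNZ@Gel, a change of -0.57, while with the trend removed it was called higher, at 0.20 (adjusted p = 0.0176). The weaker Eid3 region (chr10:82735077-82736363) held 6.24 and 6.19 RPM in Gel and 14.4 and 11.6 in CuNZ@Gel. It was called higher, at 0.95 and at 0.94 with the trend removed. Scaled to the background pileup it stood at 0.001 and was not called. The strongest regions beside Txnrd1 thus differed in direction on the deposited scaling.

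Txn1 encodes thioredoxin, the shared substrate of the reductase and donor to the peroxiredoxins. With no region under its name, its chromatin could be read only through its neighbours. The next genes in RefSeq are Gm35344 and Gm52700, both non-coding, and the strongest region of each is given, again chosen after its values were seen. That of Gm35344 (chr4:57955589-57957192) held 156.8 and 169.7 RPM in Gel. The CuNZ@Gel libraries were at 87.3 and 95.1 RPM, and the change of -0.83 went to -0.02 with the trend removed. The Gm52700 region held 6.88 and 7.86 RPM in Gel and 7.40 and 5.96 in CuNZ@Gel, overlapped between groups and was not called (-0.13). Whether either region belongs to Txn1 was not determined.

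Srxn1 encodes sulfiredoxin. Its strongest region (chr2:151946609-151947900) held 66.1 and 68.3 RPM in Gel and 67.9 and 76.9 in CuNZ@Gel. The groups overlapped and no change was called (0.10 ± 0.08, adjusted p = 0.321). In the strongest decile of level, to which this region belongs, 86.9% of regions were called lower and 2.91% higher. It was called higher with the trend removed, at 0.73 (adjusted p = 3.39e-13), as it was with library totals, at 0.38. Scaled to the background pileup it stood at -0.94. The other regions near Srxn1 were at 10.8 to 12.3 RPM (region 2, -0.10 ± 0.15) and at 1.75 to 3.73 RPM (region 3, 0.61 ± 0.27, adjusted p = 0.0600). Region 3 was called higher without CuNZ@Gel replicate 1 and turned to -0.12 with the background pileup.

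Prdx1 encodes an abundant cytosolic peroxiredoxin that reduces hydrogen peroxide. Its single region (chr4:116540177-116540748) held 11.0 and 8.04 RPM in Gel and 20.98 and 20.71 in CuNZ@Gel. Both CuNZ@Gel libraries stood far above both Gel libraries, at 2.19 times their mean (1.07 ± 0.15). The change was 1.18 with the trend removed, and scaled to the background pileup it was 0.08 and was not called. It was the one member region with a peak in both CuNZ@Gel libraries and in neither Gel library, at folds of 4.29 and 4.93. The region was thus listed through CuNZ@Gel alone, the group where it is high, so its values are a description.

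As for Txnrd1, a stronger region beside Prdx1 carried another name. AV051173, a non-coding RNA gene that overlaps Prdx1 in RefSeq, named a region (chr4:116542415-116543300, chosen after its values were seen) with 80.9 and 84.9 RPM in Gel and 51.6 and 44.4 in CuNZ@Gel. Its change was -0.78 on the deposited scaling, opposite in sign to that of the Prdx1 region, and with the trend removed it was -0.19 and not called.

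Prdx5 encodes a peroxiredoxin found in mitochondria, peroxisomes and the cytosol. Its single region (chr19:6886705-6888063) held 81.5 and 82.6 RPM in Gel and 51.6 and 60.4 in CuNZ@Gel. Both CuNZ@Gel libraries were lower (-0.55 ± 0.08, adjusted p = 2.11e-07; ratio 0.683), and with the trend removed the sign turned, at 0.07 (adjusted p = 0.555). Trmt112, which encodes a methyltransferase partner, overlaps Prdx5 in RefSeq. The Trmt112 region held 25.5 and 24.1 RPM in Gel and 17.5 and 15.8 in CuNZ@Gel. It was called lower, at -0.55 and at -0.32 with the trend removed, but not with library totals (-0.28).

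Prdx6 encodes a peroxiredoxin that uses glutathione and also acts on phospholipids. Of its 8 regions, 2 were called higher and 1 lower. The lower one was the strongest, region 4 (chr1:161078181-161079695), with 95.5 and 96.1 RPM in Gel and 53.1 and 61.8 in CuNZ@Gel. The Gel libraries were nearly equal and both CuNZ@Gel libraries were well below them (-0.73 ± 0.08, adjusted p = 6.91e-11). It stood at -0.09 with the trend removed and was not called.

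Region 5 of Prdx6 (chr1:161095272-161096629), 17.0 kb from the strongest, moved the other way. It held 13.5 and 14.8 RPM in Gel and 23.2 and 19.3 in CuNZ@Gel (0.55 ± 0.14, adjusted p = 8.15e-04). It was called higher, at 0.72, with the trend removed, and scaled to the background pileup it turned to -0.45. The largest change near Prdx6 was in region 8 (chr1:161149303-161149498), which held 0 and 6 reads in Gel and 17 and 16 in CuNZ@Gel. It too entered the test through CuNZ@Gel alone. Its change of 1.22 ± 0.34 lost its call without Gel replicate 1 (0.99) and with the trend removed (0.82). Region 3, which did not pass the filter, held 23 reads in CuNZ@Gel replicate 1 and 1 to 3 in each of the other libraries.

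Summed over all regions near a gene, 3 genes were called higher and 4 lower. Among all 25900 genes tested, 20.5% were higher and 36.1% lower. The lower sums were Gclc (-0.43 ± 0.05), Gclm (-0.63 ± 0.10), Prdx5 (-0.55 ± 0.08) and Prdx6 (-0.36 ± 0.06), and with the trend removed none was called and the last 3 turned to 0.05, 0.07 and 0.06. The sum near Prdx6 was also not called with library totals (-0.08). The higher sums were Prdx1 (1.07 ± 0.15), Txnrd1 (1.06 ± 0.16) and Slc7a11 (0.24 ± 0.06), and scaled to the background pileup the first pair was not called and Slc7a11 turned to -0.81. The Txnrd1 and Slc7a11 sums include regions that passed the region filter through CuNZ@Gel alone. Txnrd1 region 1 went from a mean of 0.39 to 1.6 RPM, in a sum that went from 7.03 to 15.8. Slc7a11 region 8 went from 0.21 to 5.24 RPM, in a sum that went from 99.0 to 117.4. Sums without these regions were not tested. The Prdx1 sum is that of its single region, listed through CuNZ@Gel peaks alone. The Gclc sum includes region 9, listed through Gel peaks alone. Gsr (0.03 ± 0.10) and Srxn1 (0.10 ± 0.07) were not called, but with library totals both were called higher, at 0.31 and 0.38. With the trend removed, the sums of Slc7a11 (0.55), Srxn1 (0.62), Prdx1 (1.18) and Txnrd1 (0.73) were called higher and none lower, where 20.5% of all genes were higher and 16.4% lower. Some genes had a match to the letters of the response element in a promoter. Of these, the sums of Prdx1 and Txnrd1 were thus higher, that of Gclm lower and that of Srxn1 not called on the deposited scaling. A sum holds only the regions under the name of the gene. On the same scaling, the stronger regions of AV051173 and Gm38560, which overlap Prdx1 and Txnrd1, were lower, at -0.78 and -0.57. No region was placed in a promoter, so these directions cannot be tied to the element.

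The calls of the members were divided by level. Of 7 member regions in the strongest decile, 4 were called lower and none higher, beside 86.9% and 2.91% of all regions there. Those not called were the strongest regions of Srxn1 and Slc7a11 and region 6 of Gclc. Of 11 regions in the 2 strongest deciles, 5 were lower and 2 higher, beside 71.3% and 7.51% of all regions. Of the 30 tested below them, 2 were lower and 7 higher, 3 of these having entered through CuNZ@Gel alone, beside 9.53% and 24.6%. Over all regions the division was the same, with median changes from 0.35 in the weakest decile to -0.60 in the strongest. Some members were called against the median of their own decile. Regions 9 and 10 of Slc7a11 were higher in a decile where 12.1% of regions were, and the Prdx1 region and region 5 of Prdx6 in one where 21.4% were. Region 9 of Gclc was lower in a decile where 11.0% of regions were. That region was listed through Gel peaks alone, and the Prdx1 region through CuNZ@Gel peaks alone. Each is high in that group, so neither call is independent of how the region was listed.

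**Figure D4:**
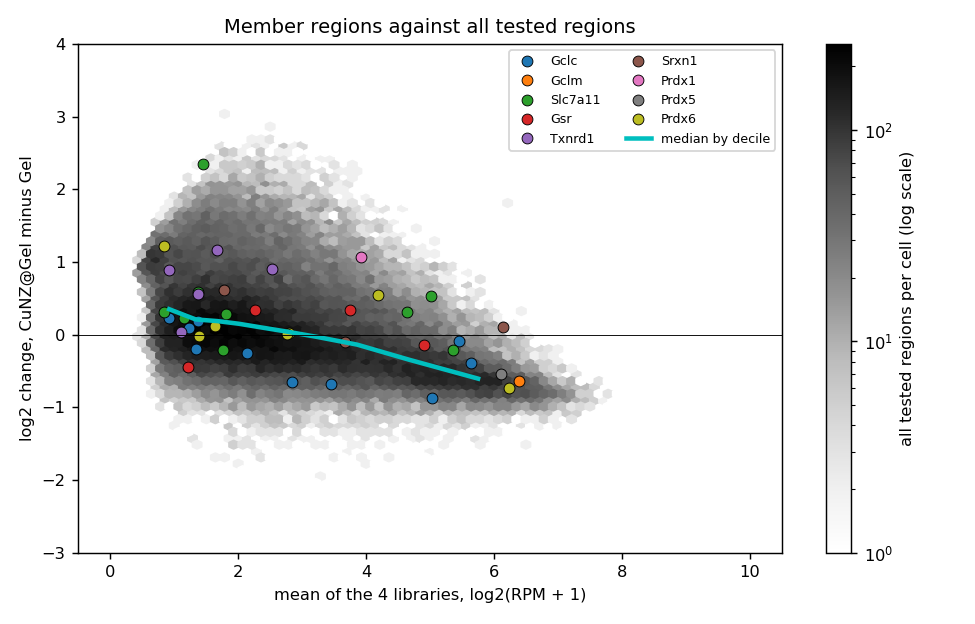
Change of the 41 tested member regions (coloured points) against their mean level, both on the log2(RPM + 1) scale, over the density of all tested regions (grey) with the median change of each decile of level (line). The strongest members, such as Gclm and Prdx6 region 4, lie near the falling median line, and the strongest region of Srxn1 lies above it.

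Peaks had been called by the authors in each library alone. Of the 43 regions, 29 and 33 held a peak in the Gel libraries and 21 and 23 in the CuNZ@Gel libraries. A peak was present in all 4 libraries in 15 regions, in 3 in 5, in 2 in 8 and in 1 in 15. In 6 regions both Gel libraries and neither CuNZ@Gel library held one. Among them was Gclc region 9, with authors' folds of 3.46 and 3.23. The shares of all regions that held peaks in these patterns, or in CuNZ@Gel alone as in the Prdx1 region, were not determined. Peak lists of the shallower CuNZ@Gel libraries were shorter, with 42612 and 53273 peaks against 61757 and 59251 in Gel, and with each list held to its 42612 strongest peaks the members had 20 and 18 in Gel and 21 and 19 in CuNZ@Gel. Member regions were 182 to 1515 bases wide, with a median of 499 beside 485 over all regions.

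Of 55 other genes of the 2 systems and their NADPH supply, 49 had a region, and 6 were called higher and 23 lower, with a median of -0.24 beside -0.10 over all genes. The shares over all genes were 20.5% higher and 36.1% lower. Removal of the trend gave 12 higher and 4 lower, with a median of 0.05, where 20.5% of all genes were higher and 16.4% lower. Rises were largest for Cth (0.88 ± 0.11), which makes cysteine from cystathionine, Hagh (0.71 ± 0.11), a glyoxalase, Txn2 (0.52 ± 0.17), the mitochondrial thioredoxin, Glrx (0.38 ± 0.07), a glutaredoxin, and Mgst2 (0.27 ± 0.06), a microsomal glutathione transferase. Reads near Cth went from 18.5 and 18.9 RPM in Gel to 33.7 and 36.8 in CuNZ@Gel. The call of Txn2 was lost with the trend removed (0.37), without Gel replicate 1 (0.56) or 2 (0.48) and without CuNZ@Gel replicate 1 (0.43). Scaled to the background pileup all 5 turned to between -0.78 and -0.14. 

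Falls were largest for Glrx5 (-0.79 ± 0.06), a mitochondrial glutaredoxin of iron-sulfur cluster assembly, G6pdx (-0.74 ± 0.11), which makes NADPH, and Slc3a2 (-0.72 ± 0.06), the heavy chain that pairs with Slc7a11. Selenos (-0.69 ± 0.07), a selenoprotein of the endoplasmic reticulum, and Prdx3 (-0.68 ± 0.09), the mitochondrial peroxiredoxin, followed. Reads near Slc3a2 went from 143.8 and 139.1 RPM in Gel to 85.8 and 85.5 in CuNZ@Gel. The 2 chains of the exchanger thus differed in sign on the deposited scaling, Slc7a11 higher and Slc3a2 lower, and that difference itself was not tested. With the trend removed, G6pdx was the one of these 5 still called lower, at -0.38, and Slc3a2 stood at -0.09.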

How the data were processed

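The tools named in the submitters' processing notes were MACS2 2.2.8, Picard 2.27.5, SAMtools 1.17, Bowtie2 2.3.4.3 and fastp 0.23.1, with build GRCm39 and no order of use. The authors deposited log2 values for 80929 regions in each library, each named by its nearest gene. These were read as log2(RPM + 1), because 100% of the values up to 50 reads came out whole to within 0.1 read. The Gel libraries had implied scaling factors of 0.910 and 0.902, and the CuNZ@Gel libraries of 1.108 and 1.099. The authors also deposited peak lists per library with a score, a fold enrichment (ratio) and -log10 of a p-value and q-value. Merging these lists (gap of at most 1 base) gave the same 80929 regions and their coordinates, counted from 1.

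Testing was limited to regions that reached 10 reads at the median library (0.71 per 1000000) in 2 libraries and 15 reads in all. It used two-sided limma 3.58.1 with an intensity trend in R 4.3.3, adjusted by Benjamini-Hochberg over all regions, after the code was tested on simulated data. Gene sums are log2(summed RPM + 1). Of the 43 regions, 2 (Prdx6 region 3, Slc7a11 region 3) failed the filter. By rule the text names each gene's strongest and most changed region and the 5 largest rises and falls among called sums of the other pathway genes whose groups did not overlap. All other regions named were chosen after their values were seen, because they were called, changed call, stood out or lay beside a member. The members and lists were chosen with earlier results of these data known. Libraries were not paired by replicate number in the main test. Deviations of the replicates numbered 1 from their group means correlated at r = 0.016 across regions. That single comparison cannot settle whether same-numbered libraries were prepared together. RefSeq GRCm38.p6 gave promoters and neighbouring genes only, and no region was placed in an exon, intron or promoter. Alternatives covered scaling, pseudocount (0.25), filter, voom, a replicate block, each library left out, and peak thresholds.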

Additional observations from a re-analysis of the deposited data

How the results depend on the processing

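Scaling moved the results most; the cause was not tested. Member regions called lower numbered 3 with the trend removed and 20 with background pileup (main 7), and those called higher 15 with library totals and 2 with background pileup (main 9). Over all 77014 regions these settings gave 10612 and 46694 lower (main 16855), and 23142 and 3738 higher (main 16314). Gene sums called lower were 0 with the trend removed and 7 with background pileup, and those higher 5 with library totals and 0 with background pileup. Other pathway genes called lower were 12 with library totals, 4 with the trend removed and 44 with background pileup, and those higher 15, 12 and 0 in the same order. Of all 25900 genes, 4840 were lower and 8889 higher with library totals. With background pileup, 19551 of them were lower and 718 higher. With the trend removed, 16.4% of all genes were lower and 20.5% higher. The median change of all genes moved from -0.10 to 0.15 with library totals and -1.06 with background pileup. Counting uncalled changes too, 15 of the 41 member regions turned in sign with the trend removed, 19 with background pileup and 5 with library totals. Among changes called on either scale, the sign turned with background pileup for Prdx6 regions 2 (-0.88), 5 (-0.45) and 6 (-0.88), Srxn1 region 1 (-0.94), Slc7a11 regions 9 (-0.50) and 10 (-0.70), Gsr region 4 (-0.63), and the sums of Gsr (-1.01), Slc7a11 (-0.81), Srxn1 (-0.95), Cth (-0.14), Hagh (-0.31), Txn2 (-0.43), Glrx (-0.67) and Mgst2 (-0.78). With the trend removed such turns were those of Gclm (0.0515), Gclc regions 6 (0.38) and 7 (0.12), Prdx5 (0.0679) and the Prdx6 sum (0.0553), and of the Gm38560 region (0.20). In Gel replicate 2, 18 member regions held a peak among the same number of top peaks (main 33). With the replicate block, 9 member regions were higher and 7 lower, 3 gene sums higher and 4 lower, and 6 other pathway genes higher and 24 lower, and no named call changed. Median-of-ratios factors, no filter and a pseudocount of 0.25 changed no named call, while Srxn1 region 3 and Gsr region 4 became called with voom and the former also with a filter of 2 RPM. Leaving out 1 library gave 6 to 9 member regions higher and 6 to 9 lower. Low read counts limit the values of the 3 regions that passed the filter through CuNZ@Gel alone, with 0 to 7 reads in each Gel library.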
